A study of Mus musculus with 4 samples.

Results

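Blood clotting and the dissolution of clots are run by a small set of cell-surface receptors, proteases and protease inhibitors, and 9 genes of this set are described here in polysome-associated mRNA from mouse striatal cell lines: Thbd, Procr, Tfpi, F3, F2r, Plat, Plau, Plaur and Serpine2. They were taken by symbol from a table of 53465 genes, and 8 of the 9 had enough reads to be tested among 12961 genes; Tfpi did not. The 9 genes were chosen on this same comparison with its values known, so their levels and differences are given as a description. Where a call or threshold is named for them, it comes from the fit over all tested genes and is no independent evidence. In HD-homo cells, thrombomodulin (Thbd) stood at 169 and 265 CPM (counts divided by effective library size) against 0 and 0.131 in control cells, the protein C receptor Procr was 5.95-fold higher and tissue factor (F3) 1.82-fold higher. The thrombin receptor F2r was 3.69-fold lower and the tissue plasminogen activator Plat 1.88-fold lower, whereas urokinase (Plau) had nearly equal means.

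The study sequenced poly(A) mRNA recovered from polysomes after ribosomes already on the mRNA had been allowed to run off under harringtonine, a drug that blocks newly initiating ribosomes. The control group was STHdhQ7/Q7 and the HD-homo group STHdhQ111/Q111, immortalized striatal lines of C57/BL6 label in which both alleles of the Huntington disease gene Htt carry a chimeric human and mouse exon 1 encoding 7 or 111 glutamine repeats. Each group held 2 libraries of 1 line, and both groups had the same drug treatment, so the repeat length and any other difference between the lines cannot be told apart. No total RNA was analysed here, so the amount of an mRNA and its retention in polysomes cannot be told apart either, and in bulk samples neither can fewer cells of a type and less RNA per cell. The libraries held between 12372090 and 15472808 counts. Htt, the altered gene itself, had 27.1 and 28.2 CPM in control and 8.95 and 4.16 CPM in HD-homo. CPM values carry edgeR's TMM scaling factors, and the median log2 fold change (HD-homo minus control) of all tested genes was 0.0017.

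Of the markers of the labelled cell type, Drd1 and Drd2, which define striatal projection neurons, had 0 counts in all 4 libraries, as did the neuronal genes Rbfox3, Snap25 and Syt1. Other genes of these lists were expressed, among them the striatal transcription factor Foxp1 (55.9 and 62.5 CPM against 148 and 116 CPM, control first) and the neuronal gene Map2 (24.2 and 39.7 CPM against 29.0 and 24.8 CPM). The neuronal and neural progenitor list had 4 of 6 tested genes lower in HD-homo (10.9% of all tested genes were called lower) and 0 higher. Its summed level was 287 and 383 CPM in control against 60.9 and 73.6 CPM in HD-homo. Among the lower genes, Pax6 had 40.6 and 40.0 CPM in control and 0.233 and 0.146 CPM in HD-homo. Sox2 had 96.1 and 89.9 CPM against 4.20 and 4.82 CPM, and Nes 48.8 and 122 CPM against 2.18 and 1.75 CPM. The mesenchymal list had 4 of 6 tested genes higher (10.4% of all tested genes were called higher) and 0 lower. Its summed level was 925 and 1874 CPM in control against 5320 and 5206 CPM in HD-homo. Among the higher genes, Col1a2 had 16.8 and 19.7 CPM in control and 1121 and 1125 CPM in HD-homo. Pdgfra had 0.990 and 1.18 CPM against 36.3 and 40.1 CPM, and Dcn 0.707 and 0.919 CPM against 8.79 and 9.57 CPM. Col3a1, at 159 and 327 CPM against 375 and 360 CPM, was not called. The part of these lists in the differences described below was not tested.

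Coagulation starts when tissue factor, a transmembrane protein kept away from blood, binds factor VII and sets off the cascade that makes thrombin. Thrombin cleaves fibrinogen and also signals to cells through protease-activated receptors. Thrombomodulin binds thrombin on the cell surface and turns it from clotting towards activating protein C, a reaction helped by the endothelial protein C receptor. Tissue factor pathway inhibitor shuts off the starting complex. Clots are dissolved by plasmin, which the tissue and urokinase-type activators make from plasminogen, and serpins restrain both activators. In brain, tissue plasminogen activator, thrombin and its receptor are also known for roles outside blood, in neurons and glia.

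The promoters of 6 of the 9 genes were found in the RefSeq promoter table (GRCm38.p6), with 7 entries in all, each running from 250 bases before to 50 bases after the annotated start. Thbd, Plat and Plau had no entry. The AP-1 motif, TGACTCA or its reverse complement TGAGTCA, is known as a binding sequence of Jun and Fos dimers and was looked for on both strands. It was present in 4 of the 7 entries, those of Procr, F3, Plaur and F2r, against 1709 of 32851 promoters of the same length (5.20%). The 4 sequences are shown because these genes include 3 with higher HD-homo values (Procr, F3, Plaur) and 1 with lower values (F2r). Each is printed 5′ to 3′ on the gene's own strand with the AP-1 letters in capitals and with the part inside the annotated gene left off. Procr is chr2:155750967-155751116 (plus strand), F3 is chr3:121723287-121723536 (plus), Plaur is chr7:24462233-24462482 (plus) and F2r is chr13:95618488-95618716 (minus).
Procr: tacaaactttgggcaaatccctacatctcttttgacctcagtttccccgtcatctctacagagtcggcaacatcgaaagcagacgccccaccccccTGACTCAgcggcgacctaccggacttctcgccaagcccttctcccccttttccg
F3: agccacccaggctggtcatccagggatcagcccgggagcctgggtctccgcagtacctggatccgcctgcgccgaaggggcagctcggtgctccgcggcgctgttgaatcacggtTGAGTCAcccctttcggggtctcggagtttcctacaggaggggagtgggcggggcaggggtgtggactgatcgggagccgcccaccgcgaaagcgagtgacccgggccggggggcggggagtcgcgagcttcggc
Plaur: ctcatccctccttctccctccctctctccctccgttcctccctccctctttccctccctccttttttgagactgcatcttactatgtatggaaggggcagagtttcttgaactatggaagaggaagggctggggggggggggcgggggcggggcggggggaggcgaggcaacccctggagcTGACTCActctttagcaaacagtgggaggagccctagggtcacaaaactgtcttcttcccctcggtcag
F2r: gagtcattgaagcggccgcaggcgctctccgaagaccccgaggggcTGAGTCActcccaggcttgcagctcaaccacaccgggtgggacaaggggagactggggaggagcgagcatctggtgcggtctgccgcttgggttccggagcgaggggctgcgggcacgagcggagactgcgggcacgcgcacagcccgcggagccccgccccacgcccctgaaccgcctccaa
Counted from the start of transcription in each entry, the first base of the motif lay at -154 in Procr, -135 in F3, -69 in Plaur and -204 in F2r. The GC box GGGCGG (either strand), the sequence bound by Sp1, was in 6 of the 7 entries and in 35.7% of all promoters. The EGR motif GCGNGGGCG was in 2 of the 7 entries, Serpine2 at -17 and Plaur at -109, and in 5.55% of all promoters, and both of these matches overlapped a GC box. The letters TATAAA of the TATA box were in 2 of the 7 entries, both times on the strand opposite to the gene, at -127 in Tfpi and 44 bases after the start in F3, and in 13.6% of all promoters on either strand. A match describes the letters in these windows and says nothing of whether a factor was bound.

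The genes on the protein C side, which restrain clotting, had higher values in HD-homo. Thbd, a gene of 1 exon at chromosome 2, 148404466 to 148408188 (minus strand, GRCm38), encodes thrombomodulin in a coding sequence of 1731 bases. It had 0 and 2 counts in control and 2168 and 3635 counts in HD-homo, that is 0 and 0.131 CPM against 169 and 265 CPM. The groups were far apart, and 1 control library held no read of the gene at all. From the summed counts the HD-homo level was 3210-fold higher, with a 95% interval of 888 to 26509 that covers counting error only. The fitted log2 fold change was 11.46 (SE 0.51). It depends on the prior count and on the 2 control reads: it was 10.60 without control replicate 1 and 14.52 without control replicate 2, where the remaining control library is at 0.

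Procr encodes the receptor that presents protein C to the thrombin and thrombomodulin complex. It lies on the same chromosome at 155751117 to 155755471 (plus strand), with 4 exons and a coding length of 726 bases, the shortest of the 9. Its level was 4.74 and 4.33 CPM in control and 25.9 and 28.1 CPM in HD-homo. The groups did not overlap and the libraries within each group lay close together (4.54 ± 0.29 and 27.0 ± 1.6 CPM, SD, n = 2). Its log2 fold change of 2.57 (SE 0.26) kept to 2.51 to 2.65 over 12 settings of the analysis, the narrowest range of the 7 genes other than Thbd and Tfpi.

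Tfpi, the inhibitor of the tissue factor and factor VII complex, is on chromosome 2 as well, at 84432855 to 84476775 (minus strand). It was close to the limit of detection: 0 counts in both control libraries and 9 and 2 counts in HD-homo, or 0.700 and 0.146 CPM. It was too low to be tested. With a floor of 3 counts assumed for the control group, the HD-homo level was 4.06-fold higher. This ratio takes no account of counting error in the 11 HD-homo reads, so it is not a lower limit. It dropped to 1.43 without HD-homo replicate 1 and rose to 6.85 without HD-homo replicate 2. Leaving out a control library also lowered it, to 2.10 for replicate 1 and 1.95 for replicate 2. The larger part of the Tfpi reads came from a single library.

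F3, which encodes tissue factor, the starter of coagulation, is on chromosome 3 at 121723537 to 121735048 (plus strand), with 6 exons and a coding length of 882 bases. Its level was 222 and 214 CPM in control and 466 and 328 CPM in HD-homo. Both HD-homo libraries were above both controls, but they differed from each other by far more than the controls did (397 ± 97 against 218 ± 5.2 CPM, SD, n = 2). F3 had a log2 fold change of 0.86 (SE 0.22). It no longer passed the threshold once either control replicate 1 (log2 fold change 0.89), control replicate 2 (0.84) or HD-homo replicate 1 (0.61) was left out. The immediate early gene Egr1, a known regulator of F3, also differed between libraries of 1 group: it had 134 and 45.4 CPM in control and 320 and 55.7 CPM in HD-homo, and was not called. Its part in the F3 values was not tested.

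F2r encodes protease-activated receptor 1, which thrombin cleaves to signal into the cell. It lies on chromosome 13 at 95601803 to 95618487 (minus strand), with 2 exons and a coding length of 1290 bases. Its level was 302 and 419 CPM in control and 111 and 84.8 CPM in HD-homo. Every HD-homo library was below every control library, with the wider spread in control. The log2 fold change was -1.89 (SE 0.24) and stayed between -2.10 and -1.63 over 12 settings. F2r thus differed in the opposite direction to thrombomodulin, the other thrombin-binding membrane protein among the 9.

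**Figure D1:**
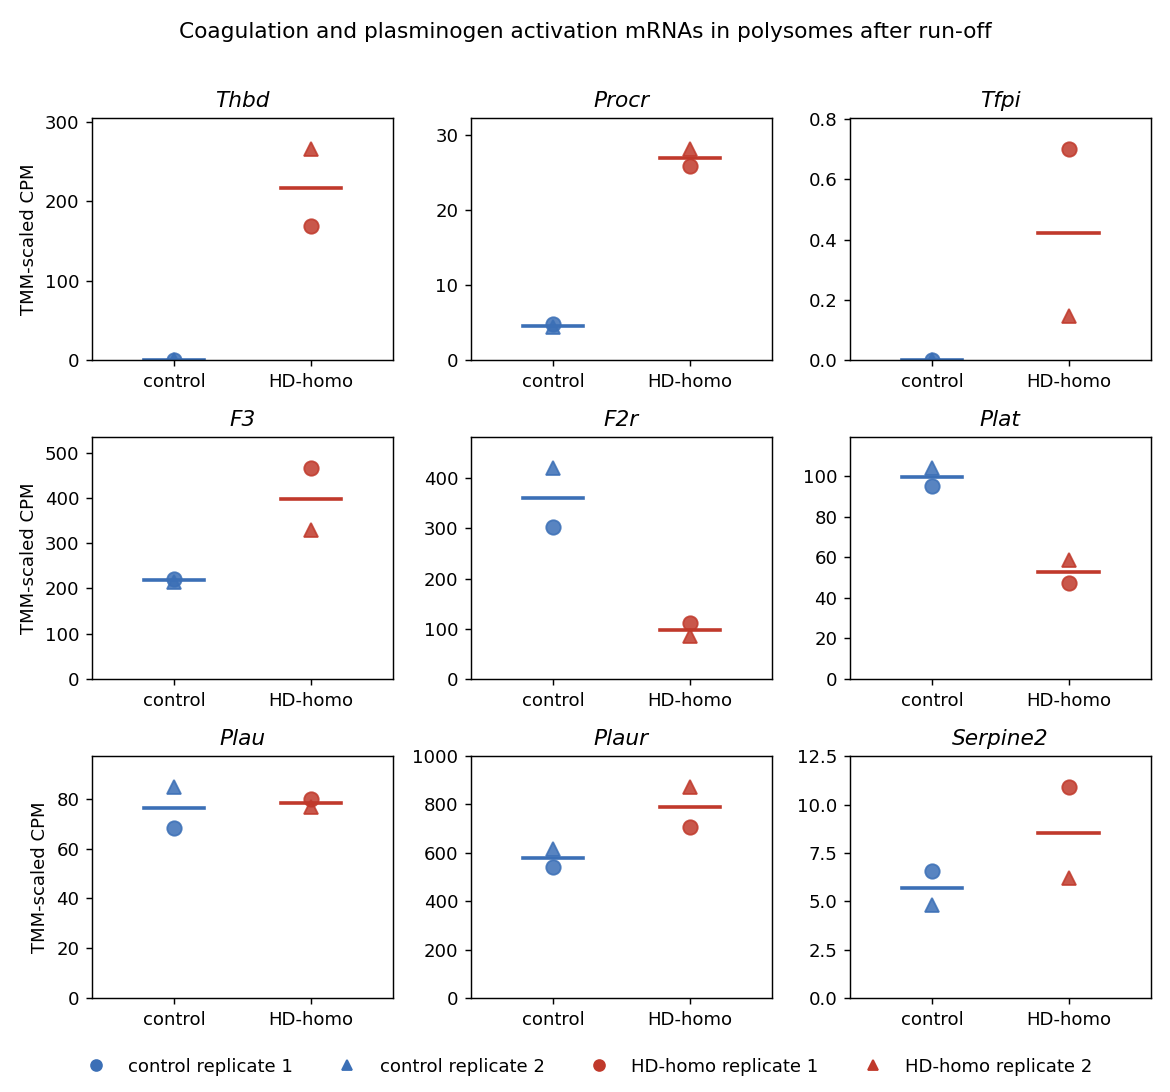
TMM-scaled CPM of the 9 genes in each library on linear axes that start at 0, with 1 panel per gene. Circles are replicate 1, triangles replicate 2, and bars group means of 2 libraries. Thbd, Procr, F3 and Plaur lie higher in both HD-homo libraries, F2r and Plat lie lower in both, and Plau and Serpine2 overlap. Tfpi stays under 1 CPM throughout.

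The plasminogen activators did not differ alike. Plat encodes tissue plasminogen activator, a secreted protease stored and released by neurons as well as endothelium, and lies on chromosome 8 at 22757727 to 22782844 (plus strand; 14 exons, coding length 1677 bases). Its level was 95.2 and 104 CPM in control and 47.2 and 58.6 CPM in HD-homo, with no overlap between the groups. The log2 fold change was -0.91 (SE 0.21), and the gene no longer passed the threshold without HD-homo replicate 1, where the value was -0.75. Plau encodes urokinase, the activator that works at the cell surface, and lies on chromosome 14 at 20836660 to 20843385 (plus strand; 11 exons, coding length 1299 bases). It had 68.2 and 84.6 CPM in control and 79.8 and 76.8 CPM in HD-homo, so both HD-homo values fell within the control range. The log2 fold change of Plau was 0.03 (SE 0.21, 95% interval -0.42 to 0.49), which leaves room for a modest difference in either direction.

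Because the activators differed unequally, their ratio within a library also differed, and this ratio does not depend on how libraries are scaled. Per length of exon, Plau was 1.89 and 2.15 times Plat in the control libraries and 4.45 and 3.45 times Plat in the HD-homo libraries. The control ratios lay below both HD-homo ratios. Likewise F3 was 0.969 and 0.675 times F2r in control, and 5.56 and 5.11 times F2r in HD-homo. Tissue factor mRNA was thus below thrombin receptor mRNA in both control libraries and above it in both HD-homo libraries.

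Plaur, the receptor that holds urokinase on the cell surface, is on chromosome 7 at 24462484 to 24475968 (plus strand; 7 exons, coding length 981 bases). It had 542 and 616 CPM in control and 706 and 870 CPM in HD-homo. The groups did not overlap, yet Plaur did not pass the threshold. Its log2 fold change was 0.45 (SE 0.22, 95% interval -0.02 to 0.91), and it ran from 0.29 to 0.60 over 12 settings. Serpine2 encodes protease nexin-1, a serpin of brain and other tissues that inhibits thrombin and both activators. It lies on chromosome 1 at 79794197 to 79861180 (minus strand; 9 exons, coding length 1191 bases). Its level was low, at 6.58 and 4.79 CPM in control and 10.9 and 6.21 CPM in HD-homo, and the groups overlapped. Serpine2 had a log2 fold change of 0.59 (SE 0.33), which came to 0.15 without HD-homo replicate 1, the library with the highest value.

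Over the 9 genes, edgeR called 3 higher (Thbd, Procr and F3; 10.4% of all tested genes were called higher) and 2 lower (F2r and Plat; 10.9% of all tested genes were called lower). A further 3 (Plau, Plaur and Serpine2) were not called, and 1 (Tfpi) was not tested. The groups did not overlap for 6 of the 8 tested genes, 4 higher and 2 lower, where 57.2% of all tested genes had groups that did not overlap. These counts follow from the choice of the genes and are read no further.

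**Figure D2:**
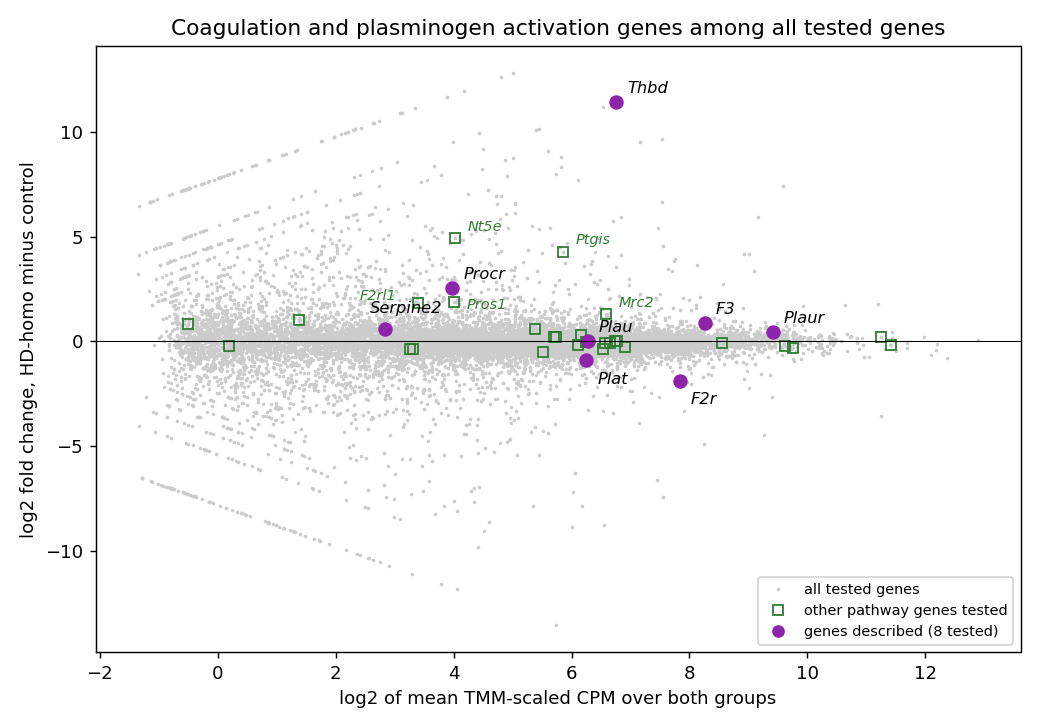
Log2 fold change (HD-homo minus control) against the log2 mean CPM of both groups for 12961 tested genes (grey), with the 8 tested genes of the described set in purple and 28 other pathway genes as green squares. Thbd lies near the top of the plot at 11.46, F2r lies lowest of the 8 at -1.89, and Plau lies on the zero line at 0.03. The 5 green squares with names are the other pathway genes that passed the threshold.

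Between genes, levels were compared per kilobase (kb) of exon in GENCODE M21, a length that may include exons these cells do not use. In control the order of mean CPM per kb was Plaur (221), F2r (108), F3 (86.3), Plau (32.3), Plat (15.9), Procr (2.23), Serpine2 (0.686), Thbd (0.0176) and Tfpi (0). In HD-homo it was Plaur (301), F3 (157), Thbd (58.3), Plau (33.1), F2r (29.3), Procr (13.3), Plat (8.48), Serpine2 (1.03) and Tfpi (0.0775). Plaur was the highest of the 9 in all 4 libraries. Thbd passed from the second lowest place to the third highest and F2r from the second highest to the fifth. The neighbours Plau (33.7 and 32.4 CPM per kb) and F2r (33.1 and 25.4) overlapped in HD-homo, and the neighbours F2r (90.6 and 126) and F3 (87.8 and 84.8) were only just apart in control. Per length, F3 was 4.07 and 1.82 times Thbd in the HD-homo libraries, so tissue factor stayed the higher of the pair.

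**Figure D3:**
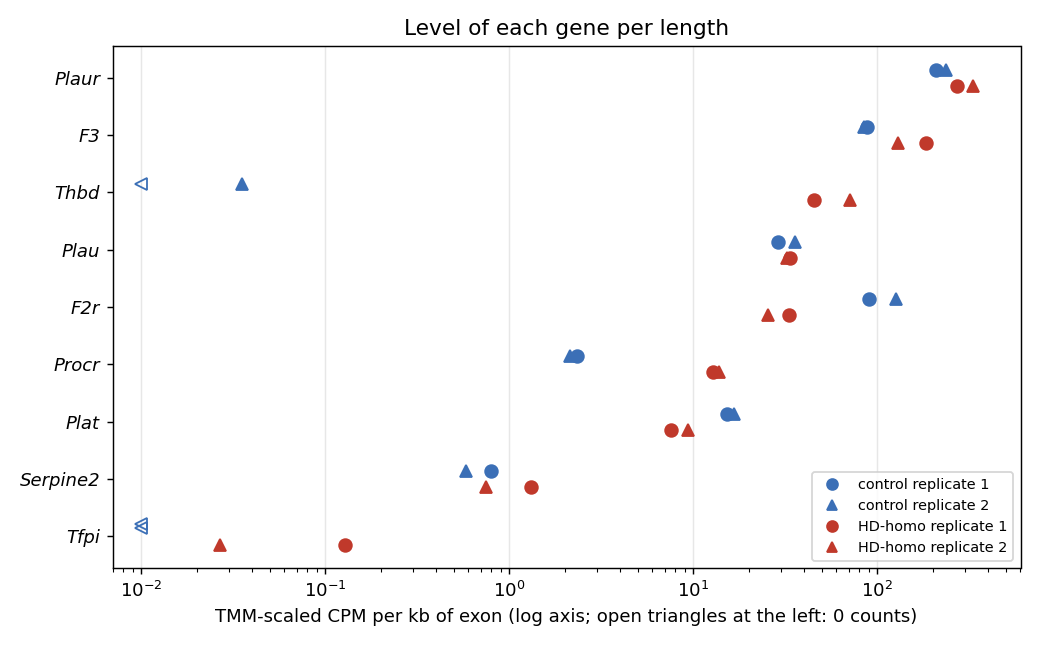
CPM per kb of exon on a log axis for the 9 genes, ordered by their HD-homo mean, with controls in blue and HD-homo in red. Open triangles at the left mark libraries with 0 counts. Plaur is the highest in every library, Thbd runs from 0 and 0.0353 CPM per kb in control to 45.3 and 71.3 in HD-homo, and F2r from 90.6 and 126 to 33.1 and 25.4.

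Coding length, which bears on how long ribosomes take to run off an mRNA, ranged from 726 bases (Procr) to 1731 bases (Thbd) over the 9 genes. The median over 11710 tested coding genes was 1395 bases, with quartiles of 873 and 2239 bases, so the 9 genes span much of the middle of this range. The 3 genes called higher had coding lengths of 726 (Procr), 882 (F3) and 1731 bases (Thbd). The 2 called lower had 1290 (F2r) and 1677 bases (Plat). The part of coding length in these differences was not tested. No annotated gene had an exon overlapping an exon of the 9 (0 overlaps), so reads of an overlapping or antisense gene do not enter these values as far as the annotation goes.

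The other genes of the pathway were taken from 4 lists of 63 genes in all, made from knowledge of the pathway, though with earlier results of these data known, so their calls are not independent evidence of a direction. Of these, 28 could be tested, and 21 had 0 counts in every library, among them plasminogen (Plg). With edgeR at an adjusted p under 0.05, 5 of the 28 rose in HD-homo (17.9%, against 10.4% of all tested genes) and 0 fell. Before adjustment 7 had a p under 0.05 and a higher level and 0 a lower one; limma-voom called 5 higher and 0 lower of 28, and DESeq2 6 higher and 0 lower of 31. The median log2 fold change of the 28 was -0.01, close to that of all tested genes. Without control replicate 1, 1 gene (Vldlr) was called lower.

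Among anticoagulants and inhibitors, where Thbd, Procr and Tfpi would belong, 3 of 4 tested genes rose, where 10.4% of all tested genes did. The list held 14 genes, of which 5 had 0 counts in every library. Its summed level was 806 and 920 CPM in control and 764 and 1014 CPM in HD-homo, most of it from Anxa5. Ptgis, the synthase of prostacyclin, which keeps platelets from aggregating, had 5.52 and 5.71 CPM in control and 89.7 and 131 CPM in HD-homo (log2 fold change 4.29, SE 0.27, adjusted p = 1.25e-07). Nt5e (CD73), which makes adenosine from AMP at the cell surface, had 0.707 and 1.31 CPM against 25.1 and 38.3 CPM (log2 fold change 4.95, SE 0.37, adjusted p = 5.16e-07). Pros1, the gene of protein S, the cofactor of activated protein C, had 6.08 and 7.55 CPM against 30.1 and 20.7 CPM (log2 fold change 1.89, SE 0.28, adjusted p = 0.000206). For all 3, each HD-homo library was above each control. The fourth tested gene, Anxa5, which covers procoagulant phospholipid, had 792 and 905 CPM against 618 and 823 CPM and was not called (log2 fold change -0.24).

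Among the thrombin receptor family and its coupling proteins, 1 of 7 tested genes rose, where 10.4% of all tested genes did. This was F2rl1, which encodes protease-activated receptor 2, a relative of F2r that trypsin-like proteases and the tissue factor complex cleave. It had 5.09 and 4.14 CPM in control and 15.7 and 17.0 CPM in HD-homo (log2 fold change 1.83, SE 0.27, adjusted p = 0.000206), opposite in direction to F2r. Per length, F2r was 48.8 and 83.3 times F2rl1 in the control libraries and 5.78 and 4.09 times F2rl1 in the HD-homo libraries, so F2r remained the higher of the pair in all 4. The G protein subunit Gna11, with 375 and 389 CPM against 328 and 405 CPM, was not called (log2 fold change -0.06).

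In the plasminogen system, 1 of 10 tested genes rose, where 10.4% of all tested genes did. This was Mrc2, an endocytic collagen receptor that associates with the urokinase receptor. It had 42.6 and 68.0 CPM in control and 120 and 155 CPM in HD-homo (log2 fold change 1.32, SE 0.25, edgeR adjusted p = 0.0016). Among procoagulant factors, 0 of 7 tested genes of 23 listed were called in either direction by edgeR, 1 had an unadjusted p under 0.05, and 10 of the 23 had 0 counts in every library. The most abundant of the 7 over both groups, Ano6, which exposes procoagulant phospholipid, had 115 and 146 CPM against 108 and 111 CPM (log2 fold change -0.26).

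**Figure D4:**
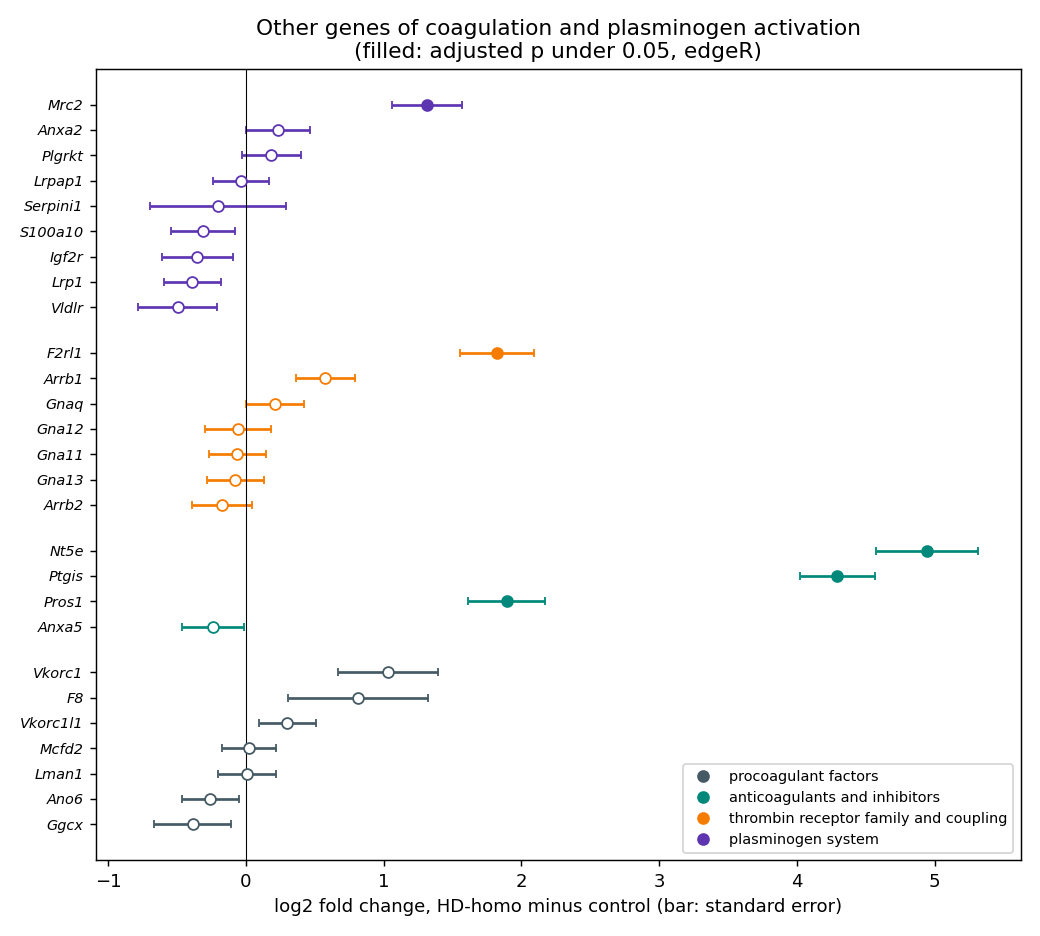
Log2 fold change (HD-homo minus control) with its standard error for 27 of the 28 tested genes of the 4 other pathway lists, coloured by list, with filled points for those that passed adjusted p under 0.05 in edgeR. The filled points are Nt5e (4.95), Ptgis (4.29), Pros1 (1.89), F2rl1 (1.83) and Mrc2 (1.32), all to the right of 0.

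Of 9 transcription factors known to act on Thbd, F3, Plau or Plat, 0 rose and 2 fell in edgeR. Over all tested genes, 10.4% were called higher and 10.9% lower. Before adjustment 1 factor had a higher and 2 a lower level at p under 0.05. Klf4, a known activator of Thbd in endothelium, had 133 and 127 CPM in control and 92.3 and 64.8 CPM in HD-homo (log2 fold change -0.73, SE 0.22, adjusted p = 0.0315), opposite in direction to Thbd. Jun, a subunit of AP-1, had 79.9 and 117 CPM against 61.5 and 56.7 CPM (log2 fold change -0.73, SE 0.23, adjusted p = 0.0361). Both calls were lost with scaling by library totals (edgeR adjusted p = 0.0558 and 0.053), where the log2 fold changes were -0.70 and -0.71. The Klf4 call was also lost without either control library or HD-homo replicate 2, and the Jun call without control replicate 2 or either HD-homo library, with limma-voom and with a minimum of 10 counts per library; over all alternatives the adjusted p ran from 2.05e-05 to 0.222 for Klf4 and from 7.1e-05 to 0.427 for Jun, lowest in each case under the replicate block. Fosl1, an AP-1 subunit and the most abundant factor of the list that was not called, had 499 and 453 CPM against 714 and 613 CPM (log2 fold change 0.48).

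Thbd, Procr and Tfpi are best known from endothelium, so markers of that and of other cell types were read in the same libraries. Of 13 endothelial markers, 1 could be tested, Egfl7, at 6.79 and 6.11 CPM against 9.26 and 10.2 CPM, and it was not called. The summed level of the list was 7.57 and 7.09 CPM in control and 10.3 and 11.5 CPM in HD-homo. Its defining genes were at or near 0: Robo4 and Sox17 had 0 counts throughout, and Pecam1 had 2 counts in control replicate 1 and 0 in the other libraries.

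Platelet and megakaryocyte markers had 3 of 3 tested genes higher (Ppbp, Gp1bb and Itga2b), where 10.4% of all tested genes were called higher. The summed level of the list was 9.55 and 7.68 CPM in control and 157 and 141 CPM in HD-homo. Itga2b made up most of the control sums (8.56 and 7.03 CPM) and Ppbp most of the HD-homo sums (125 and 102 CPM). Among the other genes of the list, Pf4, Gp9 and Gp1ba had 0 counts in all libraries. Macrophage and microglia markers had 1 of 1 tested gene higher, against the same 10.4% of all tested genes. This was Csf1r, at 0.424 and 0.525 CPM against 1.79 and 1.31 CPM. Csf1r was not called by DESeq2 or without either control library or HD-homo replicate 1. The summed level of this list ran from 0.495 to 1.95 CPM over the 4 libraries. Striatal projection neuron markers had 2 of 4 tested genes higher (Foxp1 and Ppp1r1b) and 1 lower. Over all tested genes, 10.4% were called higher and 10.9% lower. The lower gene was Adora2a, at 3.18 and 1.71 CPM in control against 0.545 and 0.219 CPM in HD-homo. The summed level of the list was 61.6 and 66.4 CPM against 152 and 124 CPM, most of it from Foxp1. Ppp1r1b was not called by DESeq2 or without either control library or HD-homo replicate 2. The part of these other cell types in the values of the 9 genes was not tested.

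**Figure D5:**
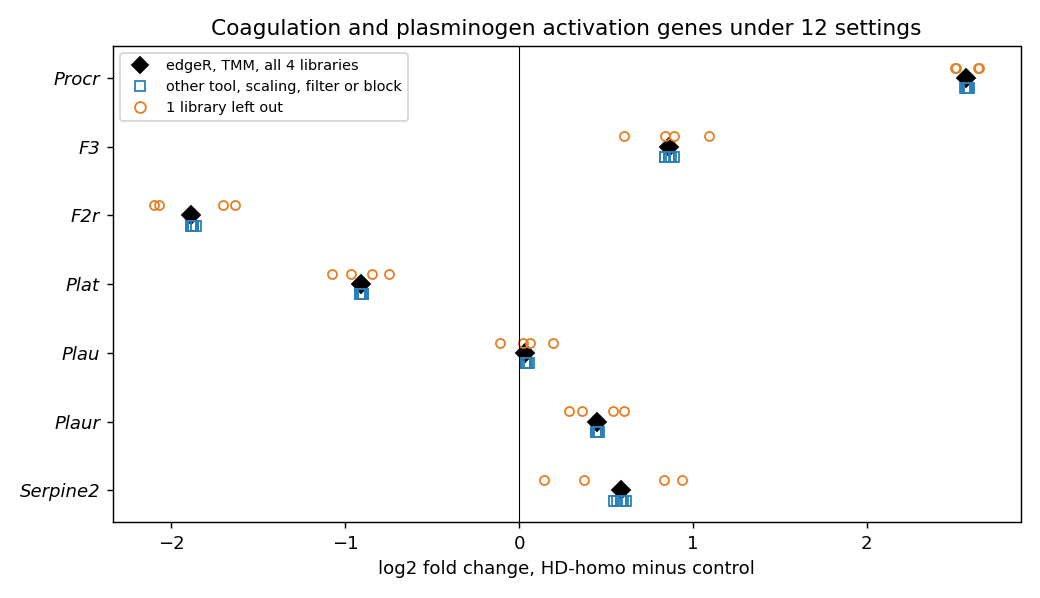
Log2 fold change (HD-homo minus control) of 7 of the 9 genes under the reported fit (black diamonds), with another tool, scaling, filter or replicate block (blue squares) and with 1 library left out (orange circles). Leaving out a library moves the values most: Serpine2 runs from 0.15 to 0.94, F3 from 0.61 to 1.09 and Plau from -0.11 to 0.20, on both sides of 0.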

How the data were processed

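Polysome-associated mRNA was measured in 2 control and 2 HD-homo libraries. The authors trimmed reads with cutadapt, filtered out rRNA and tRNA reads (Bowtie 1.1.2) and quantified genes with RSEM 1.3.0 on GRCm38.p5 with GENCODE M16, and deposited a table of whole-number counts per gene. The strand setting and any rounding were not given in the sources used here. Replicates are described by the study as independent experiments, each group being 1 line, and p-values measure only the spread between these libraries. A table of normalized values was not used.

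Counts were tested across 12961 genes kept by filterByExpr, with TMM scaling and edgeR 4.0.16 (R 4.3.3) quasi-likelihood tests, two-sided, called at Benjamini-Hochberg adjusted p under 0.05. limma 3.58.1 (voom) and DESeq2 1.42.0 were alternatives, with other scalings, filters, a replicate block and each library left out. An exact permutation test of 2 against 2 libraries cannot go below p = 0.33. Totals were 12372090 to 15472808 counts, the interval of the Thbd count ratio covers counting error only, and intervals of log2 fold changes use the fit's standard error and t quantile. The code was tested on simulated data. Libraries of 1 group differed beyond sampling noise (chi-square per degree of freedom 20.3 and 21.5), so none was a repeat sequencing of another. Whether they came from separate cultures cannot be told from these values. The 9 genes and all lists were chosen with earlier results of these data known.

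Genes outside the 9 were named by rule: in each list, up to 3 called genes of lowest p in each direction and the most abundant gene not called (3 list genes are not reported here by name); Egr1, Vldlr, untested genes at or near 0 counts and neighbouring genes were named after their values were seen. Exon lengths, coding lengths and positions came from GENCODE M21 (GRCm38), which held 12955 of the 12961 tested genes, and promoters from RefSeq. Nearest profiles were the 2 tested genes outside the lists with the smallest Euclidean distance in log2(CPM + 0.5) over the 4 libraries.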

Additional observations from a re-analysis of the deposited data

How the results depend on the processing

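With 2 libraries per group, 1 library decided several values. Over all genes, 1344 were called higher and 1408 lower; a minimum of 10 counts per library gave 815 and 883, where fewer genes are tested and Thbd has no value, the replicate block gave 2126 and 2350, and the counts ran from 1168 to 1262 and 1200 to 1327 with 1 library left out. The cause of the larger counts under the block was not tested. Replicate numbers are shared between groups, but no label says that they pair the libraries. Over the tested genes, the deviations of same-numbered libraries from their group means correlated at 0.445 between the groups. With 2 libraries per group, either replicate number gives this same value. Of the other pathway genes, 0 were called lower, 2 under the replicate block (Lrp1 and Vldlr), and 0 to 1 with 1 library left out; 5 to 6 were called higher with 1 library left out, and the 5 genes named were called in every setting. Among the 9 genes, Thbd came to 10.60 without control replicate 1 and 14.52 without control replicate 2, F3 to 0.61 and Serpine2 to 0.15 without HD-homo replicate 1, and Plau to 0.20 without control replicate 2. Tfpi was called only with no filter, at a fitted log2 fold change of 5.58 that depends on the prior count. The log2 fold change changed sign for Gna11 (-0.22 to 0.10 with 1 library left out, highest without HD-homo replicate 1) and Map2 (-0.56 to 0.15, highest without control replicate 2), none called in the reported fit. For the genes outside the 9 named by rule, the nearest profiles and Htt, there were 443 values under alternatives. Genes named only after their values were seen were not counted here. Of these 443 values, 408 kept their direction and side of the threshold, 24 lost and 9 gained a call, and 2 changed sign. The causes were not tested.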

Other observations

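The genes whose values over the 4 libraries were closest to those of the described genes were of several kinds, and closeness here says nothing of shared function or control. Nearest to Thbd was Ltbr, the lymphotoxin beta receptor, at a distance of 0.642 log2 units, with 0 and 0.131 CPM against 195 and 174 CPM, followed by Aebp1 at 1.14. Nearest to F2r were Cx3cl1, the membrane-bound chemokine fractalkine, at 0.537 (413 and 421 CPM against 103 and 103 CPM) and the collagen receptor Ddr1 at 0.586. Procr lay nearest to Decr1 (0.193) and Sh2d1b1 (0.292), Plat to Atf6b (0.131) and Tspan14 (0.146), and F3 to Fkbp9 (0.45) and Dap (0.475). Plaur lay nearest to Pcolce (0.268) apart from Rpl9 (0.2), a ribosomal protein gene with near-identical copies, whose value is uncertain.

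Genes next to the 9 on the chromosome were looked up after the values of the 9 had been seen. Of 18 neighbours, 13 could be tested, and 2 were called higher, 2 lower and 9 not called. Over all tested genes, 10.4% were called higher and 10.9% lower. Cd93, the neighbour of Thbd 28452 bases away, had means of 1.19 (control) and 1.35 CPM (HD-homo), a log2 fold change of 0.18 that was not called by edgeR (adjusted p = 0.824). F2r lies between Iqgap2, 8690 bases away, which was lower in HD-homo (log2 fold change -5.59, edgeR adjusted p = 0.000243), and F2rl1, 76576 bases away, which was higher. Calcrl, a receptor subunit for adrenomedullin 7444 bases from Tfpi, was higher in HD-homo (means of 0.200 and 8.31 CPM, log2 fold change 5.29, edgeR adjusted p = 3.31e-06). Vcl, next to Plau, was lower (log2 fold change -1.09, edgeR adjusted p = 0.01).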
